A study of Mus musculus with 8 samples.

Results

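The 41 interferon-stimulated genes described here were taken by gene symbol from a list of symbols, and all 41 were found among the 25124 genes of the deposited table. RNA was sequenced from mouse spleen CD4 T cells of dual reporter mice, in which green fluorescence reports KLF2 and red fluorescence reports FOXP3. From CD44hi cells without red fluorescence, KLF2+ and KLF2- fractions were sorted and cultured for 48 h. All groups share the reporter alleles, the gating against FOXP3 and high CD44. The groups, with 2 libraries each, were KLF2+ cells with anti-CD3 at 2.5 micrograms/mL and anti-CD28 at 1.25 micrograms/mL, KLF2+ cells without stimulus, KLF2- cells with the same antibodies, and KLF2- cells without stimulus. The antibodies trigger the antigen receptor complex together with costimulation. Replicates are numbered 1 and 2 in KLF2+ cells and 3 and 4 in KLF2- cells. The labels give no age or number of mice and do not say that the libraries came from separate cultures, so p-values measure the spread between these libraries, which may be technical.

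Interferons are cytokines that put cells into an antiviral state. Type I interferons act through a factor complex that holds STAT2 and IRF9 and binds promoter elements called ISREs. Interferon gamma, a product of activated T cells, acts through promoter elements called GAS and through IRF1, which itself binds ISRE-like letters. The guanylate-binding proteins (GBPs) and immunity-related GTPases (IRGs) are large GTPases that attack the vacuoles of intracellular microbes. IFITM proteins sit in membranes and block viral fusion, and IFIT and OAS proteins recognise or act on viral RNA.

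The promoter letters of 8 members are shown because they hold the ISRE-like and GAS-like letters by which the families can be set side by side, and because these members recur in the results. Each sequence is the 180 bases before the RefSeq start in build GRCm38.p6, 5′ to 3′ on the gene's own strand, with matches in capitals. The ISRE-like letters searched were GAAANNGAAA and the GAS-like letters were TTCNNNGAA, on both strands, where N is any base. The windows lie at chr3:142620483-142620662 (plus strand) for Gbp2, chr3:142559864-142560043 (plus) for Gbp3, chr3:142496754-142496933 (plus) for Gbp5, chr11:53769834-53770013 (plus) for Irf1, chr7:140955962-140956141 (minus) for Ifitm2, chr4:156200819-156200998 (minus) for Isg15, chr19:34583349-34583528 (plus) for Ifit3 and chr12:26456453-26456632 (minus) for Rsad2.
Gbp2: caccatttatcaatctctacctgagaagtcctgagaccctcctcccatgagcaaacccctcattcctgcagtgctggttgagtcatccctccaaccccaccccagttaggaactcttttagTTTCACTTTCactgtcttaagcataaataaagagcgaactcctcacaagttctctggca
Gbp3: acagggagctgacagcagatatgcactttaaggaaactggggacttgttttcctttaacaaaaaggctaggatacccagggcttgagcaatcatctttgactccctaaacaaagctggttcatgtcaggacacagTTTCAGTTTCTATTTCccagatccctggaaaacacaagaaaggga
Gbp5: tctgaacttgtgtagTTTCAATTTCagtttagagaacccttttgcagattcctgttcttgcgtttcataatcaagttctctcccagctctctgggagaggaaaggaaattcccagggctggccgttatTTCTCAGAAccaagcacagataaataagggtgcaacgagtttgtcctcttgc
Irf1: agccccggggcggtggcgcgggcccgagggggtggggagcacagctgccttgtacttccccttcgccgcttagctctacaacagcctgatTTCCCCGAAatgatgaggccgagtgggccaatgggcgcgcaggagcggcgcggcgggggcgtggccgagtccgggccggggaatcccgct
Ifitm2: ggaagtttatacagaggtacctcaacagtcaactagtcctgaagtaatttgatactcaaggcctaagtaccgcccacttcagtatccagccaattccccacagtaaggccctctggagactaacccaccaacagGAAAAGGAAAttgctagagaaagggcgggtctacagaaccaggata
Isg15: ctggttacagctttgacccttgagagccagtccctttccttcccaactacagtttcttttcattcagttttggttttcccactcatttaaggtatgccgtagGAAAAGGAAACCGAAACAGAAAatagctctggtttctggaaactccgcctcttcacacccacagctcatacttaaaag
Ifit3: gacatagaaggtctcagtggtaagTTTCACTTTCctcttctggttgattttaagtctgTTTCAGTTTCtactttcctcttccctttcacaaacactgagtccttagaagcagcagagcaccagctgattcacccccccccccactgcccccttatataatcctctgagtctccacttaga
Rsad2: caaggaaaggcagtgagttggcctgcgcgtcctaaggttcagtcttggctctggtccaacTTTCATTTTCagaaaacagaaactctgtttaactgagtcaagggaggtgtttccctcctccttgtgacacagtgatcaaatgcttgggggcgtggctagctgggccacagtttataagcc
Capitals mark ISRE-like matches in Gbp2, Gbp3, Ifitm2, Isg15, Ifit3 and Rsad2 and a GAS-like match in Irf1. In Gbp5 the first capitals are ISRE-like and the second GAS-like. The matches of Gbp3 and of Isg15 overlap their neighbours and form 1 run of capitals each.

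RefSeq windows from 250 bases before to 50 after the start were at hand for 31 of the 41 members, and the other 10 were not searched. ISRE-like letters were found in 18 of the 31 (58.1%), against 3.99% of 27025 genes with a window, and GAS-like letters in 10 of the 31 (32.3%), against 9.55%. All 7 GBP and IRG members with a window held ISRE-like letters and 4 of these 7 held GAS-like letters. Of the IFITM genes, 2 of 3 held ISRE-like letters, and those of Ifitm3 lay after the RefSeq start. Of the IFIT and OAS genes, 3 of 6 held ISRE-like letters. ISRE-like and GAS-like matches overlapped in 2 members, Bst2 and Ifitm3. These are letter matches only and say nothing about occupancy.

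Libraries held 2.99 M to 36.6 M counts over exons, with the most in stimulated KLF2+ cells (21 M and 36.6 M) and the fewest in stimulated KLF2- cells (4.53 M and 2.99 M). Reads spread over genes that T cells are not known to express, 1471 olfactory and vomeronasal receptor genes, were used to estimate a background. It came to 1.25% and 0.402% of exon counts in stimulated KLF2+ cells, 7.08% and 2.62% in unstimulated KLF2+ cells, 11.4% and 20.2% in stimulated KLF2- cells, and 7.83% and 7.12% in unstimulated KLF2- cells. The background thus moved with the groups, and the comparisons below are given with and without a background correction. The correction subtracts the background and also takes the scaling from genes of at least 50 CPM, so both change together. Klf2 itself had 93.5 and 139 CPM in stimulated KLF2+ cells against 303 and 379 CPM in unstimulated KLF2+ cells. In KLF2- cells it had 46.5 and 75.8 CPM with and 41 and 65 CPM without stimulus. In TPM the stimulated groups overlapped, with 33.1 and 48.6 TPM in KLF2+ against 40.5 and 79.3 TPM in KLF2- cells. Without stimulus Klf2 had 201 and 183 TPM in KLF2+ against 30.3 and 46.5 TPM in KLF2- cells. T cell markers were summed over 7 genes, none at 0, to 6099 and 6409 CPM in stimulated KLF2+, 4462 and 6643 CPM in unstimulated KLF2+, 2414 and 2320 CPM in stimulated KLF2- and 3315 and 3628 CPM in unstimulated KLF2- cells.

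Levels are given in CPM, counts relative to the size of the library after TMM scaling, in which edgeR matches libraries on most of their genes. A gene was called when its Benjamini-Hochberg adjusted p from edgeR's quasi-likelihood test was under 0.05 among 19146 genes tested, and "rose", "fell", "higher" and "lower" are used of called genes. All groups share 1 estimate of the spread, so each SE and p also draws on libraries outside its comparison. Scatter between replicates, as a mean chi-square per gene against read sampling, was unequal. It was 26.8 in unstimulated KLF2+, 5.35 in unstimulated KLF2- and 15.8 in either stimulated group. All 41 members passed the filter on low counts, and 35 were called in at least 1 of 5 comparisons. Levels of different genes are compared only in TPM, which divides by transcript length. By mean TPM over the 8 libraries the order began with Igtp (300.2 TPM), Irf1 (211 TPM), Irgm1 (164 TPM), Tap1 (149 TPM) and Gbp2 (121 TPM) and ended with Oas3 (3.47 TPM), Mx1 (1.67 TPM) and Oas2 (1.08 TPM). GBP and IRG genes thus held ranks 1, 3 and 5 of this order, and Oas3 and Oas2 ranks 39 and 41. The place of Gbp2 pools unequal groups: it averaged 243 TPM in stimulated KLF2+ cells and 64.2 to 90.7 TPM in the other groups, and lay below Gbp4 and Bst2 in both KLF2- groups. Statements that a group is highest or lowest refer to CPM, and the TPM order is added where it differs.

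In KLF2+ cells given anti-CD3 and anti-CD28, all 3 IFITM genes and 6 of 10 GBP and IRG genes rose, whereas none of the 7 IFIT and OAS genes rose and 2 of them, Ifit2 and Oasl2, fell. Of the 41 members 16 were called, beside 37.1% of all genes tested. Of these 13 rose (19.7% of all genes did) and 3 fell (17.4% of all genes did). On log2(TPM + 1) and when scaled from genes of at least 50 CPM 4 rose and 5 fell, and on log2(TPM + 0.1) 4 rose and 8 fell. Both stimulated libraries lay above both unstimulated ones for 21 members and below them for 4, beside 35.2% and 40.1% of all genes. The median log2 fold change was 3.02 for the IFITM genes, 1.00 for the GBP and IRG genes and -0.25 for the IFIT and OAS genes, beside 0.42 for all members and -0.25 for all genes. After background correction all 3 IFITM genes rose, only 1 of 10 GBP and IRG genes, Gbp2, rose, and 2 IFIT and OAS genes fell. This stood beside 12.7% of genes that rose and 16.4% that fell. Medians were then 2.47, 0.47 and -0.56 for these families in the same order, and -0.24 for all genes. In bulk RNA, fewer cells of a type and less RNA per cell cannot be told apart.

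**Figure D1:**
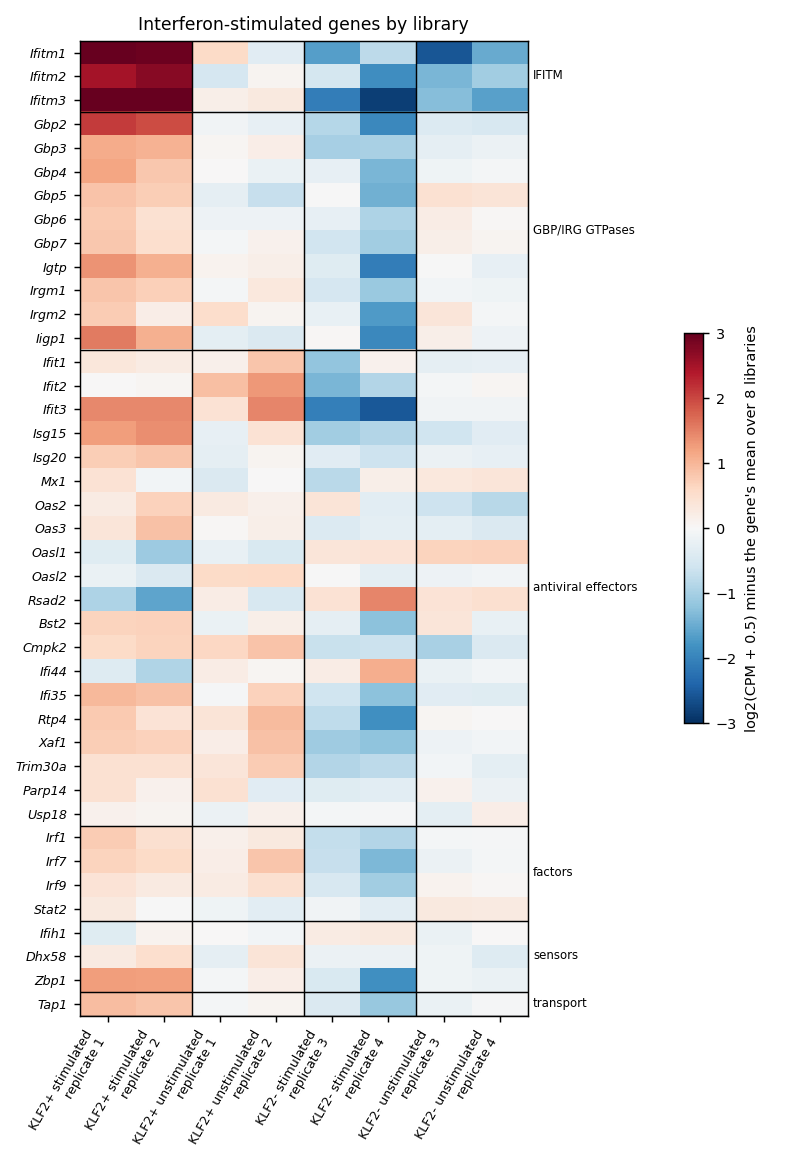
Rows are the 41 genes ordered by role and columns the 8 libraries; colour is log2(CPM + 0.5) minus the gene's mean over all libraries, red above and blue below, with the scale ending at -3 and 3. The IFITM rows and Gbp2 are darkest red in both stimulated KLF2+ libraries, while Ifit2 and Oasl2 are highest in unstimulated KLF2+ cells.

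The IFITM genes, neighbours on chromosome 7, gave the largest rises among the members. Ifitm3, which restricts viruses in late endosomes, had 122 and 122 CPM in stimulated KLF2+ cells against 10.4 and 11.3 CPM in unstimulated KLF2+ cells, and 1.81 and 0.871 CPM in stimulated KLF2- cells against 3.49 and 2.64 CPM in unstimulated KLF2- cells. Ifitm2 had 95.3 and 113 CPM in stimulated and 11.5 and 17.5 CPM in unstimulated KLF2+ cells, beside 11.4 and 4.14 CPM in stimulated and 6.04 and 7.71 CPM in unstimulated KLF2- cells. Ifitm1, which acts nearer the cell surface, had 96.4 and 75.4 CPM in stimulated KLF2+ cells against 14.2 and 7.22 CPM in unstimulated KLF2+ cells, and 2.64 and 5.23 CPM in stimulated KLF2- cells against 1.16 and 2.94 CPM in unstimulated KLF2- cells. Both stimulated KLF2+ libraries stood far above the other 6 for each gene. The log2 fold change in KLF2+ cells was 3.49 ± 0.26 for Ifitm3 (SE, n = 2 a group, edgeR adjusted p 0.000171), 3.02 ± 0.44 for Ifitm1 (adjusted p 0.00205) and 2.84 ± 0.38 for Ifitm2 (adjusted p 0.00143). After background correction the values were 3.02, 2.47 and 2.37 in the same gene order, and all 3 stayed called in each of the 19 alternatives. Of the 50-base words in Ifitm2 transcripts, 48.5% also occur in another gene model, Gm45717, so its count is uncertain. Of 5 NK markers 1, Gzma, rose and 3 fell, with a median log2 fold change of -1.62. Gzma had 586 and 659 CPM in stimulated and 3.38 and 2.25 CPM in unstimulated KLF2+ cells. Ncr1, a defining NK receptor, had 3.32 and 3.05 CPM in stimulated and 10.6 and 11.9 CPM in unstimulated KLF2+ cells. The part of NK cells in these rises was not tested.

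**Figure D2:**
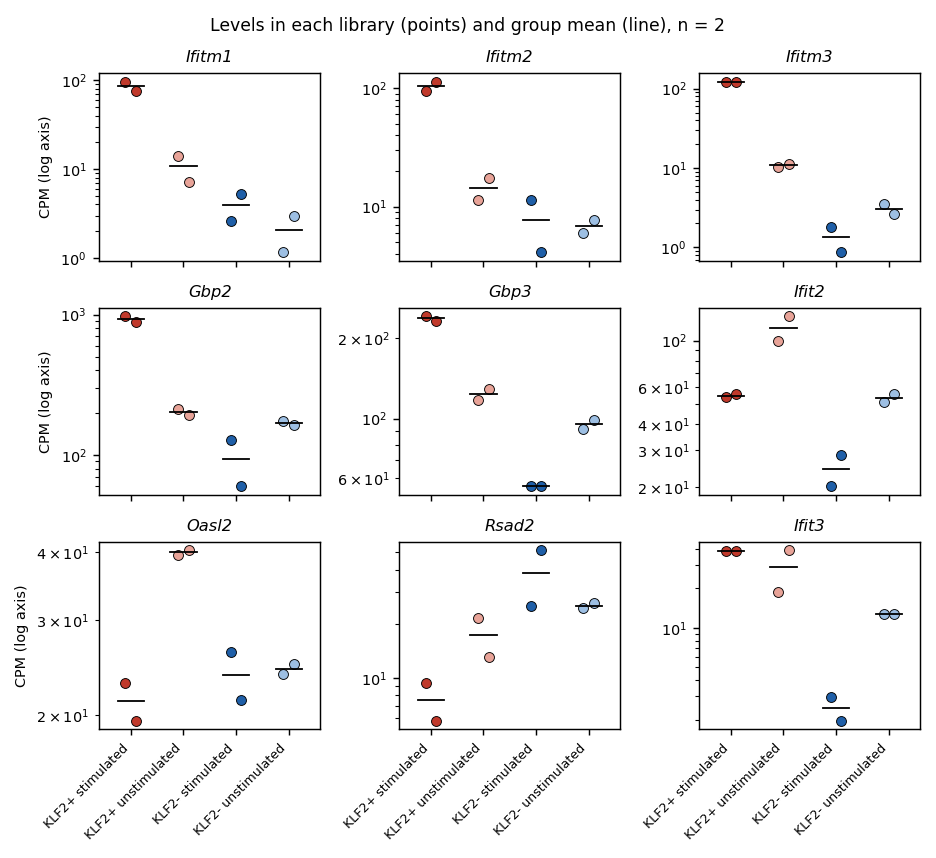
Points are the CPM of 9 members in each library on log axes, coloured by group, with a line at the group mean (n = 2). Ifitm1, Ifitm2, Ifitm3 and Gbp2 are highest in stimulated KLF2+ cells, Ifit2 and Oasl2 in unstimulated KLF2+ cells, and Ifit3 is lowest in stimulated KLF2- cells.

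Among the GTPases Gbp2, which coats pathogen vacuoles, changed most. It had 976 and 889.9 CPM in stimulated KLF2+ cells against 213 and 193 CPM in unstimulated KLF2+ cells, and 127 and 59.7 CPM in stimulated KLF2- cells against 173 and 163 CPM in unstimulated KLF2- cells. Gbp3 had 241 and 231 CPM in stimulated and 117 and 129 CPM in unstimulated KLF2+ cells, beside 55.9 and 56.2 CPM in stimulated and 91.8 and 99 CPM in unstimulated KLF2- cells. Gbp4 had 789.9 and 615 CPM in stimulated KLF2+ cells against 355 and 306 CPM in unstimulated KLF2+ cells, and 293 and 135 CPM in stimulated KLF2- cells against 318 and 336 CPM in unstimulated KLF2- cells. For each of these, both stimulated KLF2+ libraries lay above all others in CPM. In TPM, stimulated KLF2+ cells overlapped for Gbp4 with unstimulated KLF2+ cells and with both KLF2- groups. Gbp5, which promotes inflammasome assembly, had 125 and 116 CPM in stimulated and 57.3 and 42.4 CPM in unstimulated KLF2+ cells, beside 69.2 and 25.1 CPM in stimulated and 95.3 and 90.7 CPM in unstimulated KLF2- cells. Gbp6, whose transcript words occur to 70.7% in the model Gm43302 so that its count is uncertain, had 271 and 214 CPM in stimulated KLF2+ cells against 139.9 and 139.6 CPM in unstimulated KLF2+ cells, and 131 and 81.7 CPM in stimulated KLF2- cells against 183 and 161 CPM in unstimulated KLF2- cells. Gbp7 had 402 and 325 CPM in stimulated and 219.5 and 248 CPM in unstimulated KLF2+ cells, beside 154 and 109.8 CPM in stimulated and 256 and 241 CPM in unstimulated KLF2- cells. In CPM stimulated KLF2+ cells were again highest, and replicate 4 of stimulated KLF2- cells was lowest for all 3 genes. In TPM unstimulated KLF2- cells had the highest means, with 25.5 TPM in stimulated KLF2+ cells against 40.7 TPM in unstimulated KLF2- cells for Gbp5, 36 against 52.6 TPM for Gbp6 and 41.3 against 58.3 TPM for Gbp7.

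The IRG members include effectors that load onto vacuoles and regulators that keep them in check. Iigp1, an effector, had 436 and 308 CPM in stimulated KLF2+ cells against 119 and 108 CPM in unstimulated KLF2+ cells, and 150.3 and 37.9 CPM in stimulated KLF2- cells against 165 and 131 CPM in unstimulated KLF2- cells. Igtp, also called Irgm3, a regulator and the most abundant member by TPM, had 1318 and 1082 CPM in stimulated and 559.9 and 587 CPM in unstimulated KLF2+ cells, beside 406 and 124 CPM in stimulated and 516 and 438 CPM in unstimulated KLF2- cells. Irgm1, a regulator, had 606 and 555 CPM in stimulated KLF2+ cells against 328 and 425 CPM in unstimulated KLF2+ cells, and 240.4 and 156 CPM in stimulated KLF2- cells against 323 and 313 CPM in unstimulated KLF2- cells. Their highest values were in stimulated KLF2+ cells, although Irgm1 had the highest mean TPM in unstimulated KLF2- cells (161 TPM in stimulated KLF2+ and 182 TPM in unstimulated KLF2- cells). Irgm2 had 162 and 109 CPM in stimulated and 136 and 101 CPM in unstimulated KLF2+ cells, beside 80.9 and 29 CPM in stimulated and 122 and 90.9 CPM in unstimulated KLF2- cells, and its KLF2+ groups overlapped.

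In the KLF2+ response the log2 fold change of Gbp2 was 2.20 ± 0.33 (SE, edgeR adjusted p 0.00214), and 1.65 after background correction, with the call kept in all 19 alternatives. Iigp1 rose by 1.71 ± 0.49 (adjusted p 0.026), Gbp5 by 1.28 ± 0.37, Gbp4 by 1.09 ± 0.33, Gbp3 by 0.94 ± 0.18 and Gbp6 by 0.80 ± 0.25. These 5 lost their calls after background correction, with values from 0.27 for Gbp6 to 1.18 for Iigp1, all still positive. Gbp7 (0.64 ± 0.23), Irgm1 (0.62 ± 0.26), Igtp (1.06 ± 0.44) and Irgm2 (0.19 ± 0.40) did not pass the test.

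No IFIT or OAS gene rose in KLF2+ cells. Ifit2, which binds RNA and limits viral translation, had 53.8 and 55.3 CPM in stimulated KLF2+ cells against 99.3 and 131 CPM in unstimulated KLF2+ cells, and 20.1 and 28.5 CPM in stimulated KLF2- cells against 51.1 and 55.6 CPM in unstimulated KLF2- cells. Oasl2, an OAS-like protein, had 23 and 19.5 CPM in stimulated and 39.6 and 40.4 CPM in unstimulated KLF2+ cells, beside 26.2 and 21.3 CPM in stimulated and 23.8 and 24.9 CPM in unstimulated KLF2- cells. Both were highest in unstimulated KLF2+ cells, with no overlap between the KLF2+ groups. Ifit3, a partner of Ifit2 in IFIT complexes, had 38.7 and 38.6 CPM in stimulated KLF2+ cells against 18.9 and 39.1 CPM in unstimulated KLF2+ cells, and 2.97 and 1.96 CPM in stimulated KLF2- cells against 12.8 and 12.8 CPM in unstimulated KLF2- cells. Its transcript words are shared to 51.2% with Ifit3b, so its count is uncertain, and its KLF2+ groups overlapped. Oas3, which makes the 2-5A signal for RNase L, had 19 and 27.2 CPM in stimulated and 14.9 and 16.5 CPM in unstimulated KLF2+ cells, beside 10.9 and 11.8 CPM in stimulated and 11.9 and 10.7 CPM in unstimulated KLF2- cells. Oasl1 had 5.14 and 2.88 CPM in stimulated KLF2+ cells against 5.74 and 4.77 CPM in unstimulated KLF2+ cells, and 8.74 and 9.15 CPM in stimulated KLF2- cells against 10.9 and 11.2 CPM in unstimulated KLF2- cells. All 4 KLF2+ libraries lay below the KLF2- ones for Oasl1. Oas3 was highest in stimulated KLF2+ cells in CPM but not in TPM, with 3.13 TPM against 4.17 TPM in stimulated KLF2- cells. Ifit1 and Oas2 were called in no comparison. Ifit1 ranged over the 8 libraries between 12.5 and 52.3 CPM and Oas2 between 1.83 and 6.24 CPM. In TPM Ifit1 had 8.29 to 9.03 in stimulated and 14.9 to 17.3 in unstimulated KLF2+ cells.

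Ifit2 fell with a log2 fold change of -1.08 ± 0.22 (SE, edgeR adjusted p 0.00764) and Oasl2 with -0.91 ± 0.22 (adjusted p 0.0141). Background correction gave -1.59 for Ifit2 and -1.42 for Oasl2, both called. Each was called in 18 of 19 alternatives, the exception being the fit without stimulated KLF2+ replicate 2, with adjusted p 0.0642 for Ifit2 and 0.146 for Oasl2. Macrophage and monocyte markers moved with these falls. Their sum over 10 genes was 49.3 and 84.5 CPM in stimulated KLF2+ cells against 862 and 1633 CPM in unstimulated KLF2+ cells, and 9 of the 10 fell, Fcgr1 being at 0 in stimulated replicate 1. Unstimulated KLF2- cells, with 39.2 and 39.5 CPM of these markers, had Ifit2 at 51.1 and 55.6 CPM. Stimulated KLF2- cells, with 37.3 and 65.8 CPM of them, had Ifit2 at a mean of 24.3 CPM. Other lists moved too in KLF2+ cells, as 3 of 5 tested conventional and 2 of 5 tested plasmacytoid dendritic cell markers fell and none rose. Of 5 NK markers 3 fell and 1 rose, and no T cell or B cell marker was called. The part of any of these cell types in the falls was not tested.

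Of the other 13 antiviral effectors, 2 rose and 1 fell, beside 19.7% and 17.4% of all genes. Isg15, a ubiquitin-like modifier, had 18 and 19.8 CPM in stimulated KLF2+ cells against 6.08 and 10.1 CPM in unstimulated KLF2+ cells, and 3.30 and 3.70 CPM in stimulated KLF2- cells against 4.65 and 5.68 CPM in unstimulated KLF2- cells. Isg20, an exonuclease that degrades RNA, had 31.7 and 34.1 CPM in stimulated and 15.6 and 19.9 CPM in unstimulated KLF2+ cells, beside 14.8 and 12.2 CPM in stimulated and 16.6 and 15.7 CPM in unstimulated KLF2- cells. Both rose, with log2 fold changes of 1.22 ± 0.39 (SE, edgeR adjusted p 0.037) and 0.88 ± 0.26 (adjusted p 0.0277), but not after background correction (0.80 and 0.42). Rsad2 (viperin), which makes a chain-terminating nucleotide, had 9.36 and 5.76 CPM in stimulated KLF2+ cells against 21.6 and 13.1 CPM in unstimulated KLF2+ cells, and 25.1 and 51.4 CPM in stimulated KLF2- cells against 24.4 and 26 CPM in unstimulated KLF2- cells. It fell by 1.20 ± 0.41 on the log2 scale (edgeR adjusted p 0.0442), and its call was lost by a small margin after background correction (-1.69, adjusted p 0.0544).

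The effectors that did not pass the test in the KLF2+ response were measured as follows. Bst2 (tetherin), which holds budding virions and is the most abundant effector by TPM, had 94.9 and 97 CPM in stimulated KLF2+ cells against 52 and 68 CPM in unstimulated KLF2+ cells, and 49.6 and 25.3 CPM in stimulated KLF2- cells against 76.9 and 51.6 CPM in unstimulated KLF2- cells. Ifi35 had 179.8 and 169.8 CPM in stimulated and 89.2 and 148 CPM in unstimulated KLF2+ cells, beside 60.3 and 38.8 CPM in stimulated and 71.9 and 71 CPM in unstimulated KLF2- cells. In CPM both were highest in stimulated KLF2+ cells. In TPM Bst2 averaged 76.4 in stimulated KLF2+ cells and was highest in unstimulated KLF2- cells (106 TPM), and Ifi35 averaged 82.4 in stimulated and 87.5 TPM in unstimulated KLF2+ cells. Xaf1, a proapoptotic protein, had 41.3 and 40.4 CPM in stimulated KLF2+ cells against 28.5 and 45.7 CPM in unstimulated KLF2+ cells, and 11.5 and 10.5 CPM in stimulated KLF2- cells against 22.1 and 23.3 CPM in unstimulated KLF2- cells. Rtp4 had 76.9 and 59.8 CPM in stimulated and 58.9 and 86.1 CPM in unstimulated KLF2+ cells, beside 26 and 12.2 CPM in stimulated and 46.5 and 44.8 CPM in unstimulated KLF2- cells. Trim30a had 132 and 132 CPM in stimulated KLF2+ cells against 123 and 164 CPM in unstimulated KLF2+ cells, and 52.1 and 55.5 CPM in stimulated KLF2- cells against 90.9 and 78.8 CPM in unstimulated KLF2- cells. For these 3 genes the KLF2+ groups overlapped and both KLF2- groups lay below either in CPM. In TPM the KLF2+ groups did not overlap, and stimulated KLF2+ cells lay below unstimulated KLF2+ cells for all 3. They had 9.86 to 10.2 against 13.2 to 15.4 TPM of Xaf1 and 24.1 to 31.4 against 45.1 to 47.9 TPM of Rtp4. For Trim30a the values were 22.1 to 22.5 against 38.1 to 39.5 TPM. Stimulated KLF2+ cells also had lower mean TPM than unstimulated KLF2- cells for all 3. Cmpk2, a mitochondrial nucleotide kinase encoded beside Rsad2, had 21.8 and 23.4 CPM in stimulated and 22.7 and 26.5 CPM in unstimulated KLF2+ cells, beside 8.90 and 9.15 CPM in stimulated and 7.21 and 10.6 CPM in unstimulated KLF2- cells. Ifi44 had 6.65 and 4.54 CPM in stimulated KLF2+ cells against 10.4 and 9.28 CPM in unstimulated KLF2+ cells, and 10.4 and 19.4 CPM in stimulated KLF2- cells against 7.67 and 8.32 CPM in unstimulated KLF2- cells. Parp14, an ADP-ribosyltransferase, had 112 and 89.4 CPM in stimulated and 112 and 64.1 CPM in unstimulated KLF2+ cells, beside 62.8 and 65.3 CPM in stimulated and 88.3 and 72.3 CPM in unstimulated KLF2- cells. Ifi44 was lowest in stimulated KLF2+ cells, and the groups of Parp14 overlapped. In TPM Cmpk2 had 4.39 to 4.65 in stimulated and 7.26 to 8.61 in unstimulated KLF2+ cells. Mx1, a GTPase that traps viral nucleocapsids, and Usp18, a brake on the type I receptor that also removes ISG15, were called in no comparison. Mx1 stayed between 1.98 and 5.29 CPM and Usp18 between 29.4 and 41.6 CPM. In TPM Usp18 had 13.9 to 14.6 in stimulated and 20 to 22.1 in unstimulated KLF2+ cells.

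No member among the transcription factors passed the test in the KLF2+ response. Irf1 had 688 and 564 CPM in stimulated KLF2+ cells against 445 and 493 CPM in unstimulated KLF2+ cells, and 244 and 219 CPM in stimulated KLF2- cells against 386 and 393 CPM in unstimulated KLF2- cells. Irf7, which amplifies type I interferon, had 88.4 and 83.5 CPM in stimulated and 64.1 and 100.1 CPM in unstimulated KLF2+ cells, beside 34.6 and 21.8 CPM in stimulated and 49.2 and 53.4 CPM in unstimulated KLF2- cells. Irf9 had 184 and 167 CPM in stimulated KLF2+ cells against 165 and 193 CPM in unstimulated KLF2+ cells, and 99.4 and 66.9 CPM in stimulated KLF2- cells against 151 and 142 CPM in unstimulated KLF2- cells. Each was lowest in stimulated KLF2- cells in CPM. In TPM the mean of Irf9 was lowest in stimulated KLF2+ cells (44.1 TPM, against 55.9 TPM in stimulated KLF2- cells). Irf1 averaged 188 TPM in stimulated KLF2+ and 188 TPM in stimulated KLF2- cells. The KLF2+ groups of Irf7 overlapped in CPM but not in TPM, with 28.6 to 30.7 TPM in stimulated and 41.7 to 47.3 TPM in unstimulated cells. Stat2 had 127 and 102 CPM in stimulated and 94 and 82 CPM in unstimulated KLF2+ cells, beside 95.1 and 82.3 CPM in stimulated and 126 and 124 CPM in unstimulated KLF2- cells. Their log2 fold changes lay between -0.032 for Irf9 and 0.42 for Irf1. After background correction Irf9 was called as lower (-0.56, edgeR adjusted p 0.024), as was the effector Trim30a (-0.64, adjusted p 0.0302).

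Zbp1, a sensor of left-handed nucleic acids that triggers cell death, had 227 and 224 CPM in stimulated KLF2+ cells against 90.1 and 108 CPM in unstimulated KLF2+ cells, and 68.2 and 26.1 CPM in stimulated KLF2- cells against 86.5 and 82.6 CPM in unstimulated KLF2- cells. Tap1, a subunit of the peptide pump that loads MHC class I, had 746 and 698 CPM in stimulated and 378 and 417 CPM in unstimulated KLF2+ cells, beside 292 and 178 CPM in stimulated and 345 and 386 CPM in unstimulated KLF2- cells. In CPM both were highest in stimulated KLF2+ cells, although Tap1 averaged 157 TPM there and 164 TPM in unstimulated KLF2- cells. Both rose, Zbp1 by 1.19 ± 0.35 (SE, edgeR adjusted p 0.0277) and Tap1 by 0.86 ± 0.26 (adjusted p 0.0316), though not after background correction (0.67 and 0.32). The RNA sensors Ifih1 (MDA5) and Dhx58 (LGP2) were called in no comparison and ranged over the 8 libraries between 23.6 and 37.5 CPM for Ifih1 and between 15.3 and 29.1 CPM for Dhx58.

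After background correction 4 members rose in the KLF2+ response, Ifitm1, Ifitm2, Ifitm3 and Gbp2, beside 12.7% of 15281 genes, and 4 fell, Ifit2, Oasl2, Trim30a and Irf9, beside 16.4%. The median of all members was then 0.060, against -0.24 for all genes. The count of 16 called members fell to 5 without stimulated KLF2+ replicate 2, to 7 without unstimulated KLF2+ replicate 1, and to 8 without either unstimulated KLF2- library.

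**Figure D3:**
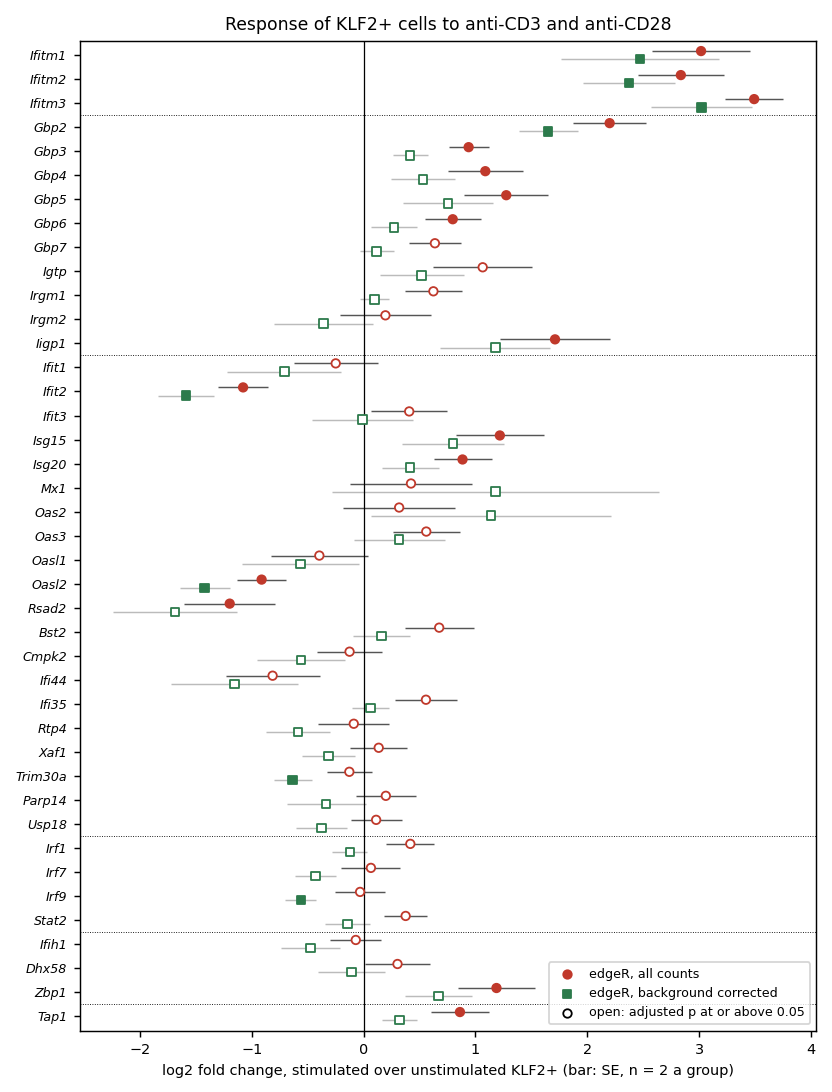
Each row gives a member's log2 fold change in KLF2+ cells, stimulated over unstimulated, with its SE (n = 2 a group), from all counts (red circles) and after background correction (green squares); filled symbols passed the test. Green squares lie left of red circles for all genes but Oas2 and Mx1, while the IFITM genes and Gbp2 stay filled on the right and Ifit2 and Oasl2 stay filled on the left.

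The balance of families within a library does not depend on how libraries are scaled against each other, although background reads enter it. The summed TPM of the 3 IFITM genes was 7.76 and 7.80 times that of the 7 IFIT and OAS genes in stimulated KLF2+ cells, against 0.825 and 0.605 times in unstimulated KLF2+ cells. In stimulated KLF2- cells it was 0.916 and 0.447 times, against 0.382 and 0.454 times in unstimulated KLF2- cells. The ratio thus separated the KLF2+ groups and overlapped between the KLF2- groups. As a share of the 41 genes' summed TPM, the IFITM genes took 12.7% and 14.1% in stimulated KLF2+ cells and 3.19% and 2.85% in unstimulated KLF2+ cells, beside 2.10% and 2.13% in stimulated KLF2- cells and 1.06% and 1.38% in unstimulated KLF2- cells. The GBPs took 22.1% and 21.6% in stimulated KLF2+ cells and 17.4% and 14.6% in unstimulated KLF2+ cells, beside 18.3% and 16.8% in stimulated KLF2- cells and 18.6% and 19.1% in unstimulated KLF2- cells. Within the GBPs, Gbp2 made up 47.7% and 49.8% of the TPM in stimulated KLF2+ cells and 29.1% and 27.8% in unstimulated KLF2+ cells, while its share in KLF2- cells was 23.9% and 20.1% with and 24.1% and 23.2% without stimulus. The IFIT and OAS genes took 1.63% and 1.81% in stimulated KLF2+ cells and 3.87% and 4.72% in unstimulated KLF2+ cells, beside 2.29% and 4.77% in stimulated KLF2- cells and 2.78% and 3.03% in unstimulated KLF2- cells. Stimulated KLF2- replicate 4 thus held as large a share as unstimulated KLF2+ cells. These shares are given as descriptions, with no test.

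**Figure D4:**
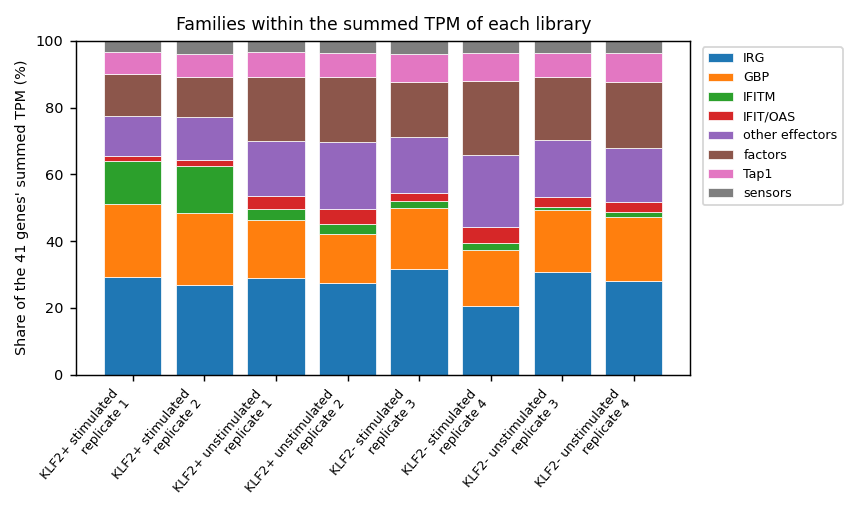
Stacked bars give, for each library, the percent of the 41 genes' summed TPM held by each family. The IFITM segment is 12.7% and 14.1% in stimulated KLF2+ cells and at most 3.19% in the other 6 libraries.

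In KLF2- cells no member passed the test for a response to the antibodies, and neither did any of the 19146 genes (0% called). Here 2802 genes and 20 of the 41 members had an unadjusted p under 0.05 by edgeR, and DESeq2 called 67 genes and 1 member, Ifit3, as lower with stimulus. The groups did not overlap for 28 members that were lower and 3 that were higher with stimulus, beside 30.2% and 31.2% of all genes. Median log2 fold changes were -0.81 for the GBP and IRG genes, 0.20 for the IFITM genes and -0.14 for the IFIT and OAS genes, and 0.064 for all genes. Ifit3 gave -2.35 ± 0.42 (SE, edgeR adjusted p 0.268) and Ifitm3 gave -1.13 ± 0.37 (adjusted p 0.273). These rest on 18.5 and 9 estimated counts for Ifit3 and 11 and 3.5 for Ifitm3 in the stimulated libraries, and replicate 4 was at or under its expected background for both. Without stimulated KLF2- replicate 3, 5 members were called as lower (Zbp1, Iigp1, Igtp, Gbp2 and Gbp5). After background correction no member and none of 15281 genes was called (0%), with 12 members and 2048 genes at an unadjusted p under 0.05. Medians were then -0.43 for the GBP and IRG genes, 0.50 for the IFITM genes, -0.25 for the IFIT and OAS genes, -0.30 for all members and 0.13 for all genes.

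The response differed between the populations for 22 members, beside 35.8% of all genes. In the test of the difference itself, KLF2+ minus KLF2-, 21 were positive (20.3% of all genes were), although Stat2 turned to -0.040 when scaled from genes of at least 50 CPM, and 1, Rsad2, was negative (15.5% of all genes were). The balance depended on the scaling, with 4 positive and 5 negative on log2(TPM + 1) and on log2(TPM + 0.1), and 7 positive and 4 negative when scaled from genes of at least 50 CPM. All 3 IFITM genes and 9 of 10 GBP and IRG genes were positive, and of the IFIT and OAS genes only Ifit3. The difference was 4.62 ± 0.43 for Ifitm3 (SE, edgeR adjusted p 0.0023), 3.04 ± 0.45 for Gbp2 (adjusted p 0.00941), 2.76 ± 0.54 for Ifit3 (adjusted p 0.0164) and -1.80 ± 0.57 for Rsad2 (adjusted p 0.038). Medians were 1.14 for the members and -0.092 for all genes. After background correction 3 stayed positive, Ifitm3 (4.78), Gbp2 (2.14) and Ifit3 (4.86), beside 3.58% of genes, and Oasl2 was negative (-1.68), beside 8.23%. For Ifitm3 and Ifit3 the subtraction left no counts in stimulated KLF2- replicate 4, so the sizes of their corrected values are uncertain. Ifitm3 alone was called in all 17 alternatives. Of the 10 macrophage and monocyte markers 8 were called as negative in this difference, with a median of -4.84, and their part in the result was not tested. The 22 calls fell to 1, Ifitm3, without either unstimulated KLF2- library, to 4 without unstimulated KLF2+ replicate 1, to 11 without stimulated KLF2+ replicate 2 and to 14 without stimulated KLF2- replicate 4.

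With the antibodies, KLF2+ and KLF2- cells differed in 33 of the 41 members, beside 75.2% of all genes. In KLF2+ cells 30 members were higher and 3 lower, beside 35.5% and 39.7% of all genes. On log2(TPM + 1) and log2(TPM + 0.1) 10 were higher and 8 lower, and 14 were higher and 7 lower when scaled from genes of at least 50 CPM. T cell markers moved with this comparison, all 7 being higher with a median of 1.41. After background correction 2 of the 7 were higher and 1 lower, with a median of 0.10. Of the 10 macrophage and monocyte markers 1 was higher and 5 were lower. Their sum was 49.3 and 84.5 CPM in stimulated KLF2+ cells against 37.3 and 65.8 CPM in stimulated KLF2- cells, with Fcgr1 at 0 in stimulated KLF2+ replicate 1 and C1qb at 0 in stimulated KLF2- replicate 4. The part of either cell type was not tested. Both KLF2+ libraries lay above both KLF2- ones for 34 members and below them for 4, beside 43.2% and 47.2%. All 3 IFITM genes were higher, and all 10 GBP and IRG genes were, although Gbp6 turned to -0.012 after background correction and to -0.21 on the log2(TPM + 1) scale, and Gbp5 (-0.29) and Irgm2 (-0.34) turned too after correction without stimulated KLF2- replicate 4. Of the IFIT and OAS genes Ifit3, Ifit2 and Oas3 were higher, although Ifit2 turned to -0.048 and Oas3 to -0.17 when scaled from genes of at least 50 CPM. On the log2(TPM + 1) scale Irf1, Irf9, Trim30a, Parp14, Isg20, Bst2 and Cmpk2 also turned to values between -0.73 for Parp14 and -0.0026 for Bst2. Medians were 4.48, 1.63 and 0.70 for these families in the same order, 1.34 for all members and -0.19 for all genes. The receptor genes used for the background gave a median of -3.10, with 399 of the 490 tested called lower in KLF2+ cells. After background correction 268 receptor genes were tested, with a median of -4.40 and 190 called lower. The correction thus did not remove the difference in those still tested. Scaling from genes of at least 50 CPM, the most abundant ones, moved the median of all genes to -1.39. The members' median was then 0.20. The same scaling moved the median of all genes to -0.75 in the KLF2+ response, 0.45 in the KLF2- response, -1.0 in their difference and -0.39 without stimulus.

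Ifitm1, Ifitm2, Ifitm3, Gbp2, Gbp3, Ifit3, Zbp1, Isg15 and Rsad2 were called in the same direction under all 16 alternatives for this comparison. Ifitm3 was higher by 6.44 ± 0.33 on the log2 scale (SE, edgeR adjusted p 4.04e-05) and Ifitm1 by 4.48 ± 0.50 (adjusted p 0.000261). Ifitm2 was higher by 3.72 ± 0.42 and Ifit3 by 3.94 ± 0.42. The GTPases in this set were Gbp2, higher by 3.32 ± 0.34, and Gbp3, higher by 2.07 ± 0.19. Zbp1 was higher by 2.25 ± 0.36 and Isg15 by 2.43 ± 0.43. Rsad2 was the one lower gene, at -2.34 ± 0.42 (adjusted p 0.00105), and the KLF2+ value of 9.36 and 5.76 CPM stands against 25.1 and 51.4 CPM in KLF2- cells. Background-corrected values were 6.51 for Ifitm3, 2.11 for Gbp2 and 0.85 for Gbp3. That of Ifitm3 is uncertain in size, since the subtraction left no counts in stimulated KLF2- replicate 4.

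After background correction 20 members were called, beside 54.5% of genes, of which 13 were higher in stimulated KLF2+ cells (16% of genes were) and 7 were lower (38.5% of genes were). Gbp2 and Gbp3 were then the only GTPases called. The 7 lower members were Rsad2 (-3.65), Ifi44 (-2.42), Oasl1 (-1.92), Ifih1 (-1.38), Oasl2 (-1.18), Usp18 (-1.08) and Stat2 (-0.85). Of these, Rsad2, Ifi44 and Oasl1 were also called as lower without the correction (-2.34, -1.41 and -1.17), whereas Usp18 and Stat2 changed sign with it. Conventional dendritic cell markers moved with Rsad2, at 25.1 and 21.6 CPM over 6 genes in stimulated KLF2+ cells against 101 and 129.6 CPM in stimulated KLF2- cells, with 4 of 5 tested lower and Clec9a at 0 in stimulated KLF2+ replicate 2. Plasmacytoid dendritic cell markers, 6 genes, gave 43.0 and 42.6 CPM against 61.5 and 107 CPM, with 3 of 5 tested lower, Klk1 at 0 in stimulated KLF2+ replicate 2 and Cox6a2 at 0 in stimulated KLF2- replicate 3. The part of such cells was not tested.

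**Figure D5:**
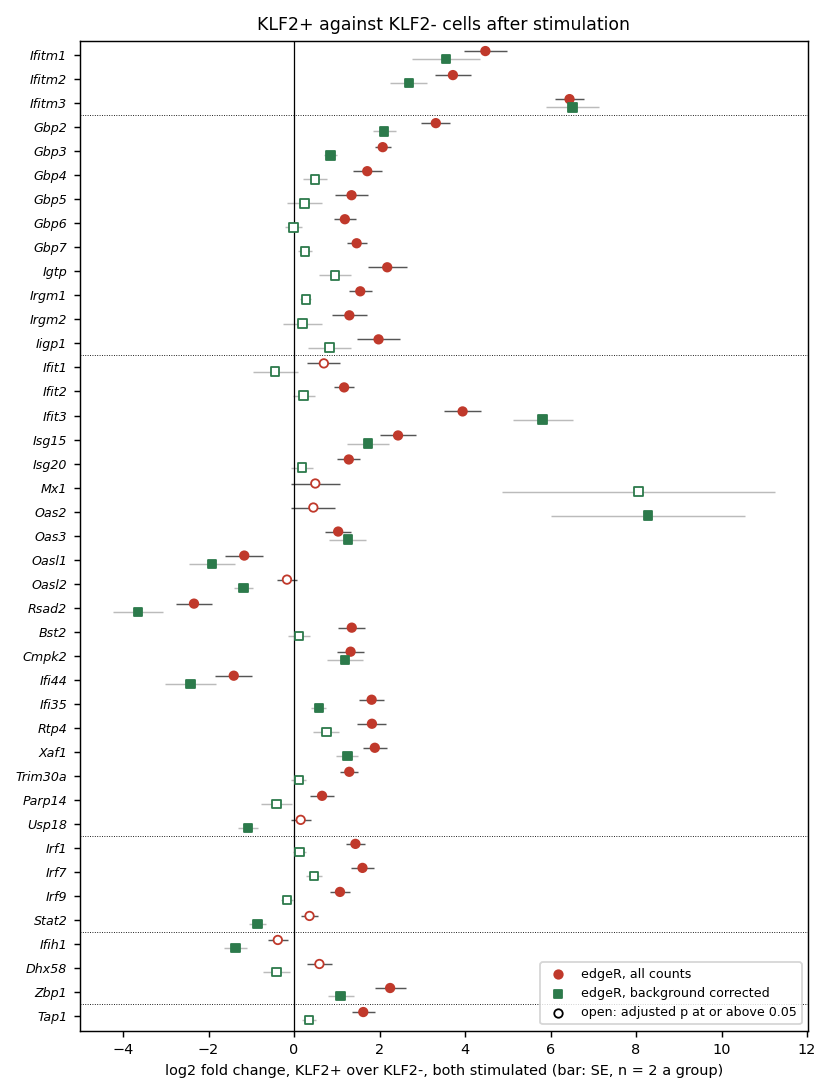
Each row gives a member's log2 fold change with stimulus, KLF2+ over KLF2- (SE, n = 2 a group), from all counts (red circles) and after background correction (green squares); filled symbols passed the test. The GTPases shift left and empty with the correction except Gbp2 and Gbp3, while the IFITM genes stay filled on the right and Rsad2, Ifi44 and Oasl1 stay filled on the left; the long bars of Mx1 and Oas2 go with counts near the background.

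Without stimulus, 4 of the 41 members were called, beside 2.32% of all genes. All 4 were higher in KLF2+ cells, beside 1.07% of all genes, and none was lower, beside 1.25% (14 members had an unadjusted p under 0.05 by edgeR, and DESeq2 called 6 as higher, with Trim30a and Ifit3 added). They were Ifitm3 at 1.82 ± 0.28 on the log2 scale (SE, edgeR adjusted p 0.00997), Ifit2 at 1.11 ± 0.22 (adjusted p 0.0346), Cmpk2 at 1.47 ± 0.30 (adjusted p 0.0383) and Ifitm1 at 2.34 ± 0.49 (adjusted p 0.0408). Both KLF2+ libraries lay above both KLF2- ones for 24 members, these 4 included, and below them for 7, beside 26.2% and 32.8% of all genes. No GBP or IRG gene was called, and their median was 0.083, beside 0.27 for all members and -0.11 for all genes. After background correction no member was called, beside 4% of genes, with 11 members at an unadjusted p under 0.05, and Ifitm3 gave 1.74 (adjusted p 0.0925). No call was left without unstimulated KLF2+ replicate 2 or without either unstimulated KLF2- library, and there were 7 without unstimulated KLF2+ replicate 1.

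Macrophage and monocyte markers moved with this comparison too. Their sum over 10 genes, none at 0, was 862 and 1633 CPM in unstimulated KLF2+ cells against 39.2 and 39.5 CPM in unstimulated KLF2- cells, and 5 of the 10 were called higher. Lyz2 (lysozyme) had 705 and 1376 CPM in unstimulated KLF2+ cells against 3.25 and 3.45 CPM in unstimulated KLF2- cells. The part of such cells in the 4 differences was not tested.

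Upstream of these genes, the ligand Ifng rose in KLF2+ cells. It had 176 and 135 CPM in stimulated KLF2+ cells against 15.9 and 24.3 CPM in unstimulated KLF2+ cells, and 18.5 and 8.71 CPM in stimulated KLF2- cells against 21.4 and 35.7 CPM in unstimulated KLF2- cells. Both stimulated KLF2+ libraries lay above the other 6. The KLF2+ response was 2.95 ± 0.38 (SE, edgeR adjusted p 0.0012), and 2.50 after background correction, the KLF2- response -1.05 ± 0.38 (adjusted p 0.286), and the difference 4.00 ± 0.53 (adjusted p 0.0076). Ifng was the one ligand of 8 tested that rose in KLF2+ cells, beside 19.7% of all genes. The difference between the responses was called as negative for Ifnb1 (-2.80 ± 0.96), which had 2.42 and 0.523 CPM in stimulated and 6.08 and 3.71 CPM in unstimulated KLF2+ cells, beside 8.90 and 10.5 CPM in stimulated and 3.95 and 5.48 CPM in unstimulated KLF2- cells. Its call was lost after background correction (-3.87, adjusted p 0.0695) and held in 9 of 17 alternatives. With stimulus Ifng was higher in KLF2+ than in KLF2- cells by 3.50 ± 0.40, beside 35.5% of all genes called higher. Of the 8 ligands 6, among them Ifna4 and Ifnl3, were called lower, beside 39.7% of all genes. Ifna4 rests on 3.5 and 5.5 estimated counts in stimulated KLF2+ cells against 14 and 24.5 in stimulated KLF2- cells, and the receptor genes of the background were lower in the same direction as all 6. After background correction 4 ligands could be tested, of which Ifng was higher and Ifna4, Ifna15 and Ifnb1 were lower, beside 16% and 38.5% of genes.

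Of the 10 factors and brakes outside the 41 genes, 5 rose in KLF2+ cells and none fell, beside 19.7% and 17.4% of all genes. Irf8 gave 1.71 ± 0.27 and the feedback inhibitors Socs3 1.90 ± 0.32 and Socs1 2.46 ± 0.64 (edgeR adjusted p 0.00283, 0.00359 and 0.0186). Of 9 receptors and kinases Jak2, which signals from the interferon gamma receptor, rose (0.99 ± 0.22) and Ifnlr1 fell (-3.35 ± 1.12), the fall resting on 2 and 5.5 estimated counts in stimulated against 40 and 4.5 in unstimulated KLF2+ cells and called in 5 of 19 alternatives. Of 31 tested other induced genes 6 rose and 3 fell, beside 19.7% and 17.4% of all genes. Those with the smallest p were Pml (1.45 ± 0.19), a nuclear body protein, Gbp11 (2.11 ± 0.38) and the immunoproteasome subunit Psmb9 (1.27 ± 0.26). The median of these 31 genes was 0.39, against -0.25 for all genes tested.

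Background correction turned the balance of these lists in the KLF2+ response. Of the 31 other induced genes 3 then rose, Pml (0.97), Gbp11 (1.70) and Psmb9 (0.75), and 10 fell, beside 12.7% and 16.4% of genes, with a median of -0.15. Of the factors and brakes Socs3 (1.37) and Irf8 (1.23) rose and Irf3 (-0.47) fell. Jak2 rose (0.46), and 2 receptors and kinases, Jak1 (-1.16) and Ifnar2 (-0.90), fell.

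In the difference between the responses, 5 of the 10 factors and brakes and 12 of the 31 other induced genes were positive, beside 20.3% of all genes, and 1 induced gene was negative, beside 15.5%. Socs3 gave 3.20 ± 0.46 (SE, edgeR adjusted p 0.00941), Irf8 2.04 ± 0.38 and Socs1 3.58 ± 0.89, and Gbp11 gave 3.42 ± 0.54, Psmb9 2.04 ± 0.36 and Pml 1.96 ± 0.27. Jak2 (1.45 ± 0.31) and Ifngr2 (1.40 ± 0.39), a chain of the interferon gamma receptor, were positive among the 9 receptors and kinases. After background correction 2 factors and brakes, Socs3 (2.43) and Irf8 (1.16), and 3 induced genes, Gbp11 (3.08), Pml (1.24) and Psmb9 (1.10), were positive, beside 3.58% of genes. The negative ones were 2 induced genes, Slfn5 (-2.06) and Sp100 (-1.35), and the kinase Jak1 (-1.16), beside 8.23%. In the KLF2- response no gene of these lists was called, with or without the correction. At an unadjusted p under 0.05 by edgeR stood 1 ligand, 3 receptors and kinases, 3 factors and brakes and 18 other induced genes, against none, none, 2 and 8 after the correction.

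With stimulus, 8 of 10 factors and brakes were higher in KLF2+ cells, relative to KLF2- cells, and none was lower, 22 of 31 other induced genes were higher and 1 was lower, and 4 of 9 receptors and kinases were higher and 1, Ifnlr1, was lower, beside 35.5% and 39.7% of all genes. This balance did not hold after background correction, when 2 factors and brakes were higher and 3 lower, 7 induced genes were higher and 8 lower, and no receptor or kinase was higher and 5 were lower, beside 16% and 38.5% of genes. Medians were -0.15 for the factors and brakes (1.11 before), -0.10 for the induced genes (1.18 before) and -0.62 for the receptors and kinases (0.56 before). Socs3 (2.62), Pml (1.33), Psmb9 (0.97), Psmb10 (0.65) and the phosphatase Ptpn6 (0.45) were among those still higher in stimulated KLF2+ cells. Irf8 turned from higher (0.71 ± 0.27) to lower (-0.54), and Irf3 (-0.089) and Ifngr1 (0.52) were not called.

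Without stimulus no ligand, receptor or other induced gene was called, and among the factors and brakes Irf5 (-1.41 ± 0.27) and Irf8 (-1.33 ± 0.27), both abundant in myeloid and dendritic cells, were lower in KLF2+ than in KLF2- cells and Ptpn6 (1.03 ± 0.23) was higher. These 3 calls held after background correction (-1.76, -1.70 and 0.70), where Ifngr2 (-1.19) and Jak2 (-0.81) were also lower. Conventional dendritic cell markers, 6 genes with none at 0, moved with Irf5 and Irf8, at 51.8 and 47.6 CPM in unstimulated KLF2+ cells against 107 and 123 CPM in unstimulated KLF2- cells, with 2 of 5 tested lower and 1 higher, while the macrophage and monocyte markers went the other way. The part of such cells was not tested.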

How the data were processed

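RNA of 8 libraries from mouse spleen CD4 T cells was sequenced after a SMARTer pico preparation. STAR 2.7.9 and HOMER 4.11 are named in the submitters' processing notes, with SAMtools and DESeq2. The authors deposited estimated counts over exons per gene on mm10, per the file headers, and these are whole multiples of 0.5. The authors also deposited TPM per gene. Read filters and the strand setting of the counting are not given in the sources used here, so reads of antisense neighbours cannot be told apart.

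Estimated counts were rounded to whole numbers and fitted with edgeR 4.0.16 (TMM, filterByExpr, quasi-likelihood test, 1 coefficient for each of 4 groups, 4 residual degrees of freedom) under R 4.3.3. P-values were adjusted over 19146 genes by Benjamini-Hochberg, at 0.05. Precision is limited by 2 libraries a group and by the low exon share, and so the low exon counts, of stimulated KLF2- cells. Background correction subtracted the density of reads per kb over 1471 genes for olfactory and vomeronasal receptors (1696.8 kb of exon) and took TMM factors from genes of at least 50 CPM, leaving 15281 genes. Alternatives were DESeq2 1.42.0, limma 3.58.1 on log2(TPM + 1) and log2(TPM + 0.1), other filters and scalings, each library left out, and the replicate number as a block. The fits without the stimulated KLF2- group, and the corrected fits without it or without its replicate 4, were chosen after seeing the data. Fits were tested on simulated data in which all groups shared the same gene profile apart from a balanced set of changed genes. That test does not cover the unequal background and scaling of these libraries. Values in every library are given for each member called in any comparison and for the most abundant member of each role group; of the pathway lists, Ifng and at most the 3 called genes with the smallest p per list and comparison are named, and 1 further gene is not reported here. The members and all lists were chosen with earlier results of these data known. Promoters came from RefSeq (GRCm38.p6), and gene models for shared sequence from GENCODE vM21.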

Additional observations from a re-analysis of the deposited data

Results flagged for a closer look

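A total of 22 members stand out because their response to the antibodies differed between the populations by edgeR's test of the difference itself. On the log2 scale, KLF2+ minus KLF2-, the difference was 4.62 for Ifitm3, 2.64 for Ifitm2 and 2.14 for Ifitm1 among the IFITM genes. It was 3.04 for Gbp2, 2.36 for Iigp1, 2.25 for Gbp5, 1.91 for Igtp, 1.71 for Gbp3, 1.70 for Gbp4, 1.55 for Gbp7, 1.48 for Gbp6 and 1.30 for Irgm1 among the GBP and IRG genes. It was 2.76 for Ifit3, 1.78 for Isg15, 1.45 for Bst2, 1.18 for Xaf1 and 1.14 for Isg20 among the effectors, and -1.80 for Rsad2, the one negative value. It was 2.02 for Zbp1, 1.50 for Tap1, 1.17 for Irf1 and 0.87 for Stat2 among the other members. The share of reads over olfactory and vomeronasal receptor genes, 1.25% and 0.402% in stimulated KLF2+ cells against 11.4% and 20.2% in stimulated KLF2- cells, moved with the same groups. After its subtraction, with the scaling changed at the same time to rest on genes of 50 CPM or more, 4 differences were called. Those of Ifitm3, Gbp2 and Ifit3 were positive, and that of Oasl2, which had not been called before, was negative. When the scaling was changed without the subtraction, 11 differences were called, 7 as positive and 4 as negative. The drop in calls thus cannot be put down to the subtraction only.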

How the results depend on the processing

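The calls of Ifitm1, Ifitm2, Ifitm3 and Gbp2 in the KLF2+ response, of 9 members between stimulated KLF2+ and KLF2- cells, and of Ifitm3 in the difference in response held under every alternative tried; most other calls depended on at least 1 setting, and the cause was not tested. In the KLF2+ response the 16 members called became 9 on log2(TPM + 1), 9 on log2(TPM + 1) with no filter, 9 scaled from genes of at least 50 CPM, 8 after background correction, and 5 to 20 with 1 library left out. The 7096 genes became 4471 on log2(TPM + 1), 3614 on log2(TPM + 1) with no filter, 4451 after background correction, and 2097 to 8971 with 1 library left out. In the KLF2- response the 0 members called became 1 with DESeq2, 2 after correction without stimulated KLF2- replicate 4, and 0 to 5 with 1 library left out. The 0 genes became 67 with DESeq2, 2 with no count filter, 12 on log2(TPM + 1), 12 on log2(TPM + 0.1), 10 on log2(TPM + 1) with no filter, 402 after correction without stimulated KLF2- replicate 4, and 0 to 107 with 1 library left out. In the difference in response the 22 members called became 9 on log2(TPM + 1), 9 on log2(TPM + 0.1), 3 on log2(TPM + 1) with no filter, 11 scaled from genes of at least 50 CPM, 4 after background correction, 6 after correction without stimulated KLF2- replicate 4, and 1 to 26 with 1 library left out. The 6855 genes became 4508 on log2(TPM + 1), 1468 on log2(TPM + 1) with no filter, 1804 after background correction, 1132 after correction without stimulated KLF2- replicate 4, and 70 to 9581 with 1 library left out. In stimulated KLF2+ against KLF2- cells the 33 members called became 18 on log2(TPM + 1), 18 on log2(TPM + 0.1), 16 on log2(TPM + 1) with no filter, 21 scaled from genes of at least 50 CPM, 20 after background correction, 18 after correction without stimulated KLF2- replicate 4, and 29 to 34 with 1 library left out. The 14396 genes became 8325 after background correction, 6940 after correction without stimulated KLF2- replicate 4, and 11690 to 15352 with 1 library left out. In unstimulated KLF2+ against KLF2- cells the 4 members called became 1 on log2(TPM + 1), 1 on log2(TPM + 0.1), 1 on log2(TPM + 1) with no filter, 1 scaled from genes of at least 50 CPM, 0 after background correction, and 0 to 7 with 1 library left out. The 444 genes became 1115 with DESeq2, 768 on log2(TPM + 1), 1492 after correction without stimulated KLF2- replicate 4, 824 without the stimulated KLF2- group, 1500 after correction without that group, and 33 to 1692 with 1 library left out. Libraries of the same number moved together with a correlation of 0.553 in KLF2+ and 0.0836 in KLF2- cells, so that the numbers are not shown to pair them. With the replicate block 21 members and 10851 genes were called in the KLF2+ response, 14 members, all lower, and 770 genes in the KLF2- response, and 28 members and 10857 genes in the difference, and no block was possible between KLF2+ and KLF2- cells, which share no number. Log2 fold changes that changed sign were, between stimulated KLF2+ and KLF2- cells, Trim30a -0.14, Parp14 -0.73, Irf1 -0.0092, Oas3 -0.33, Isg20 -0.14, Usp18 -1.23, Stat2 -1.04, Ifit2 -0.23, Gbp6 -0.21, Bst2 -0.0026, Cmpk2 -0.091, Irf9 -0.33, Dhx58 -0.77 (on log2(TPM + 1) with or without a filter); Trim30a -0.15, Parp14 -0.79, Irf1 -0.0092, Oas3 -0.41, Isg20 -0.15, Usp18 -1.28, Stat2 -1.08, Ifit2 -0.25, Gbp6 -0.22, Bst2 -0.0021, Cmpk2 -0.11, Irf9 -0.34, Dhx58 -0.85 (on log2(TPM + 0.1)); Parp14 -0.55, Oas3 -0.17, Usp18 -1.05, Stat2 -0.83, Ifit2 -0.048, Irf9 -0.10 (scaled from genes of at least 50 CPM); Parp14 -0.41, Usp18 -1.08, Stat2 -0.85, Gbp6 -0.012, Irf9 -0.16 (after background correction); Parp14 -0.27, Usp18 -0.91, Stat2 -0.82, Gbp6 -0.21, Bst2 -0.18, Gbp5 -0.29, Irgm2 -0.34, Irf9 -0.30 (after correction without stimulated KLF2- replicate 4). In the KLF2+ response Irf7 became -0.57 on log2(TPM + 1), -0.58 on log2(TPM + 0.1), -0.45 after correction without stimulated KLF2- replicate 4, -0.46 after correction without that group. In the difference Usp18 became -0.93 on log2(TPM + 1), Stat2 became -0.20 on log2(TPM + 1), Usp18 became -0.97 on log2(TPM + 0.1), Stat2 became -0.21 on log2(TPM + 0.1), Stat2 became -0.040 scaled from genes of at least 50 CPM, Stat2 became -0.039 after background correction. Low exon counts limit stimulated KLF2- cells most, where Ifit3, Ifitm3, Oas2 and Mx1 lay at or under the expected background in replicate 4.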
